A study of Homo sapiens with 32 samples.

Results

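The 47 spliceosome core genes described here are the GENCODE 44 protein-coding genes on chromosomes 1 to 22 and X whose symbol begins with SNRP, SF3A, SF3B or PRPF, or is LSM followed by a digit, of 19970 protein-coding genes in all. They are 8 Sm genes, 4 genes of U1- and U2-specific proteins, 13 LSM genes, 9 SF3A and SF3B genes and 13 PRPF genes. The rule reads symbols alone. At the 5′ end of each gene, the positions of peak summits in 4 lists were read: ZNF143, SP1, NRF1 and YY1.

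The lists come from ChIP-seq, which sequences the DNA that a protein is crosslinked to, in HEK293T cells, an established human embryonic kidney line. All 32 samples were from HEK_CloneZD29, a line of 1 clone in which ZNF143 carries a dTAG degron and an HA tag, so that the controls carry the modified gene as well. Cells were untreated or were given 50 nM of the degrader dTAGV-1 for 30 minutes. Chromatin was precipitated with antibodies against SP1, NRF1 or YY1 (4 untreated and 4 treated samples each), against HA for ZNF143 (2 and 2) or in a mock precipitation (2 and 2). The lists give 1 score per summit and no value per sample, so treated and untreated cells were not compared, loss of ZNF143 on treatment could not be checked, and no replicate error or read depth can be given.

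The spliceosome removes introns from pre-mRNA and is built from small nuclear ribonucleoproteins (snRNPs), each a small nuclear RNA with its proteins. U1 pairs with the 5′ splice site and U2 with the branch point, after which the U4/U6.U5 tri-snRNP joins and the complex is rearranged for catalysis. A ring of Sm proteins surrounds U1, U2, U4 and U5, and a ring of LSm proteins binds U6. ZNF143 is a zinc finger activator of snRNA genes and of many protein-coding promoters, and SP1, NRF1 and YY1 are widely expressed factors that bind GC boxes, CpG-containing palindromes and start-site motifs, respectively. The symbol rule also takes genes with other work: LSM1 acts in cytoplasmic mRNA decay, LSM10 and LSM11 belong to the U7 snRNP that processes histone mRNA, and LSM14A and LSM14B are P-body proteins.

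The sequences printed here show the motif letters that lie beside high-scoring summits of the group. They are from hg38, printed 5′ to 3′ on the strand that carries the match, and capitals mark the match alone. The first set holds the ZNF143 core CCCANNATG at SNRPD3 (chr22:24555949-24555978, − strand, overlapping an exon), LSM10 (chr1:36397932-36397981, + strand), SF3B1 (chr2:197435150-197435199, − strand) and LSM14A (chr19:34172400-34172449, + strand), and the extension ACTACANNT at PRPF19 (chr11:60906695-60906744, + strand) and PRPF31 (chr19:54115395-54115424, − strand, overlapping an exon). These are the 6 members with an exact match to either ZNF143 motif lying wholly within 50 bp of their ZNF143 summit.
SNRPD3 core: ttccactctttCCCAAAATGctgcgcgcag
LSM10 core: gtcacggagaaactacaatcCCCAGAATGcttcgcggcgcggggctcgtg
SF3B1 core: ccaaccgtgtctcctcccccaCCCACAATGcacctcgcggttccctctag
LSM14A core: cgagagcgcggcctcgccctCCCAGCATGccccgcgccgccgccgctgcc
PRPF19 extension: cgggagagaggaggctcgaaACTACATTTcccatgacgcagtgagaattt
PRPF31 extension: ggaaacaggaaACTACAACTcccacaaggc
The middle of the core lay 3 bp from the ZNF143 summit at SF3B1, 4 bp at LSM10, 11 bp at LSM14A and 21 bp at SNRPD3. The middle of the extension lay 7 bp from the summit at PRPF31 and 35 bp at PRPF19.

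The highest ZNF143 scores without an exact match near the summit were at SF3B5, PRPF4 and SNRPA1, and these 3 genes were chosen for display after their values were seen. Each holds the core with 1 mismatch, at chr6:144095752-144095801 (− strand), chr9:113275532-113275561 (+ strand, overlapping an exon) and chr15:101295229-101295258 (+ strand, overlapping an exon). Beyond the 50 bp limit, an exact core lay 60 bp from the summit at SF3B5 and an exact extension 83 bp from it at PRPF4.
SF3B5 core with 1 mismatch: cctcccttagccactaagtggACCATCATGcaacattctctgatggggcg
PRPF4 core with 1 mismatch: ggagggatgcCCCTCAATGccacgacgcca
SNRPA1 core with 1 mismatch: agcgagacgtCCCAGCGTGccccgcgcccc
With 1 mismatch allowed, 13 of 40 members (32.5%) and 30.6% of all genes with a ZNF143 summit held the core near it, so a match of this kind is common.

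For NRF1, the motif GCGCANGCG is shown at PRPF40B (chr12:49567890-49567939, − strand), LSM7 (chr19:2328616-2328645, − strand, overlapping an exon) and PRPF39 (chr14:45084094-45084123, − strand, overlapping an exon), which have the 3 highest NRF1 scores of the group at the gene-level starts. PRPF40B holds this place at that start alone, as its NRF1 score is 54.6 at its canonical start. For YY1, AANATGGCG is shown at 3 of the 4 genes with the highest YY1 scores, SF3B3 (chr16:70523516-70523545, − strand), SF3A1 (chr22:30356877-30356906, + strand) and PRPF38B (chr1:108692296-108692325, − strand), all overlapping an exon. For SP1, the exact letters GGGGCGGGG lay near the summit at PRPF39 alone of the 45 members with a summit (chr14:45083986-45084015, + strand), as 3 copies.
PRPF40B NRF1: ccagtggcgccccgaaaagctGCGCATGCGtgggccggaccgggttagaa
LSM7 NRF1: acgcatgcgccGCGCATGCGcgtgggggag
PRPF39 NRF1: cagggcacgatGCGCATGCGtcagtgtccc
SF3B3 YY1: gaatggggaccAAGATGGCGgaccttgatt
SF3A1 YY1: acgagctcgcAAGATGGCGgcggccgagcg
PRPF38B YY1: cccctgggaacAAGATGGCGggcccggcgg
PRPF39 SP1: cGGGGCGGGGCGGGGctgcgGGGGCGGGGc
The NRF1 summit lay on the middle of the capitalised match at LSM7, 3 bp from it at PRPF40B and 4 bp at PRPF39. The LSM7 stretch also holds exact matches on the + strand. That at chr19:2328625-2328633 overlaps the capitals and that at chr19:2328636-2328644 is in small letters. The YY1 summit lay 5 bp from the match at PRPF38B, 10 bp at SF3B3 and 45 bp at SF3A1.

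Within 500 bp of their start, 40 of the 47 core genes (85.1%) had a ZNF143 summit, and the background over all protein-coding genes was 31.7%. SP1 summits were present at 45 (95.7%; background 59.1%), NRF1 summits at 41 (87.2%; background 48.3%) and YY1 summits at 43 (91.5%; background 57.8%). Summits of all 4 lists were found at 37 genes (78.7%; background 28.1%). The shares are descriptions, since genes are no replicates of a condition and some share a promoter with a neighbour.

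The lists were also compared over genes with a summit of at least 1 list, which leaves 45 members and 12531 genes. On this base ZNF143 was at 88.9% of members and 50.5% of genes, NRF1 at 91.1% and 77.0%, SP1 at 100% and 94.2%, and YY1 at 95.6% and 92.1%. Among the 40 members with summits of the other 3 lists, 37 (92.5%) had ZNF143 as well, against 5620 of 9091 protein-coding genes (61.8%). NRF1 at genes with the other 3 lists was 92.5% of members and 92.6% of all genes. For SP1 (98.9% of all genes) and YY1 (99.3%) that base leaves almost no room for a difference.

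**Figure D1:**
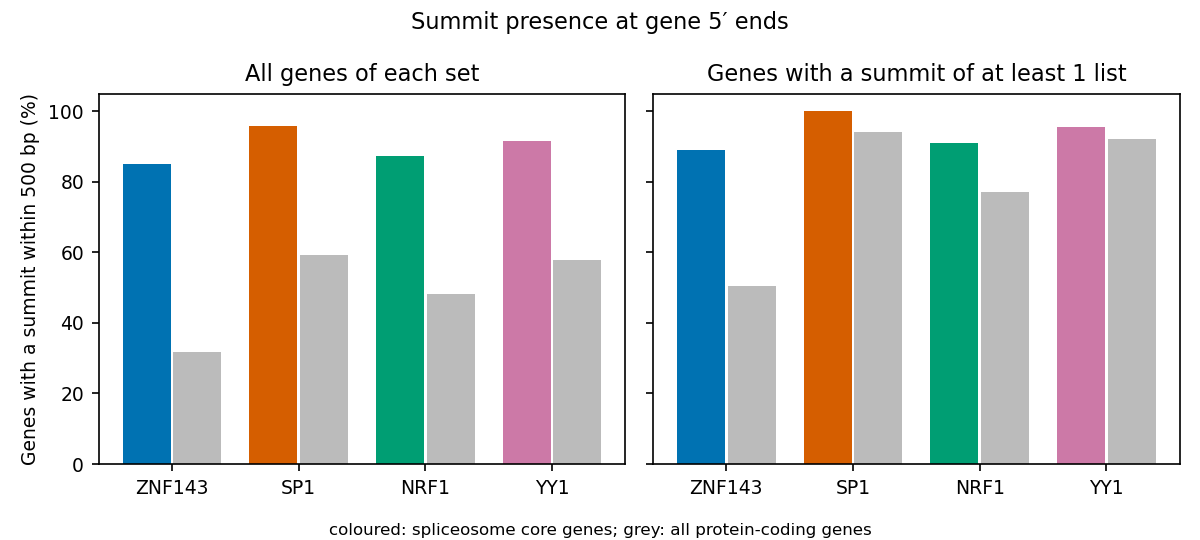
Bars give the percent of genes with a summit within 500 bp of the 5′ end, for the 47 spliceosome core genes (coloured) and all 19970 protein-coding genes (grey), on the left over all genes and on the right over the 45 members and 12531 genes that have a summit of at least 1 list. On the right the shares are 88.9% and 50.5% for ZNF143 and 91.1% and 77.0% for NRF1, while SP1 and YY1 are over 92% in both sets.

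The 10 genes without all 4 lists fell into few patterns. LSM14A, PRPF31 and SNRPD2 had ZNF143, SP1 and YY1 without NRF1, a pattern of 2.24% of all genes. PRPF18, a factor of the later splicing step, PRPF4B, a nuclear kinase, and PRPF8, the U5 scaffold at the catalytic centre, had SP1, NRF1 and YY1 without ZNF143, 3 of 47 genes (6.38%; background 17.4%). LSM2 had SP1 and NRF1, and SF3B2 had SP1. No summit of any list lay at LSM12 and SNRPN, 2 of 47 genes (4.26%; background 37.3%).

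For SF3B2 and LSM12 the absence depended on which 5′ end was used. The annotated gene start of SF3B2, a subunit of the SF3b complex, lies 1635 bp from that of its canonical transcript. Around the canonical start SF3B2 had all 4 lists, with a ZNF143 score of 6134 at −154 bp, SP1 593, NRF1 1006 and YY1 1907. LSM12, whose canonical start is 948 bp away, there had SP1 (221), NRF1 (3450) and YY1 (1073) summits and no ZNF143 summit. SNRPN, a paralogue of SNRPB in the imprinted Prader-Willi region, had none at either end, which lie 131350 bp apart. A negative offset is upstream in the direction of transcription.

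The starts lay on the same base at 18 members, 1 to 200 bp apart at 19 and further apart at 10. Besides these 3 genes, the 10 included LSM1, LSM5, PRPF31, PRPF40B, SNRPA and SNRPD2. At the canonical start SNRPA, which encodes the A protein of U1, had a ZNF143 score of 3772 in place of 117 and a YY1 score of 132 in place of 1690. LSM5 had ZNF143 548 in place of 10.6 and YY1 2721 in place of 205. PRPF40B, whose starts lie 55343 bp apart, had NRF1 54.6 in place of 14558 and no ZNF143 summit. SNRPD2 had an NRF1 summit there (3279) and no SP1 summit. The counts over the group moved little: 40 genes with ZNF143, 45 with SP1, 44 with NRF1 and 45 with YY1. Over all protein-coding genes the shares at canonical starts were 34.8%, 64.5%, 52.8% and 63.1%, in the same order.

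Each summit carries a score in the deposited list (a −log10 value, of p or of q), which is compared here only within that list. Ranks are given as the share of genes with a summit of that list whose highest score within 500 bp is at least as high, so that a low percent is a high rank. The ZNF143 ranks run over 6323 genes, the SP1 ranks over 11807, the NRF1 ranks over 9643 and the YY1 ranks over 11546. The median ZNF143 score was 88.5 at the members and 23.6 at all genes with a summit. SP1 had medians of 320 and 197, NRF1 of 79.9 and 48.0, and YY1 of 428 and 139. The YY1 scores stood highest in rank: 22 of 43 members lay in the top 25% of genes, 11 in the top 10% and 3 in the lower 50%. The top 25% of genes in ZNF143 score held 12 of 40 members, that in SP1 score 16 of 45 and that in NRF1 score 14 of 41.

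**Figure D2:**
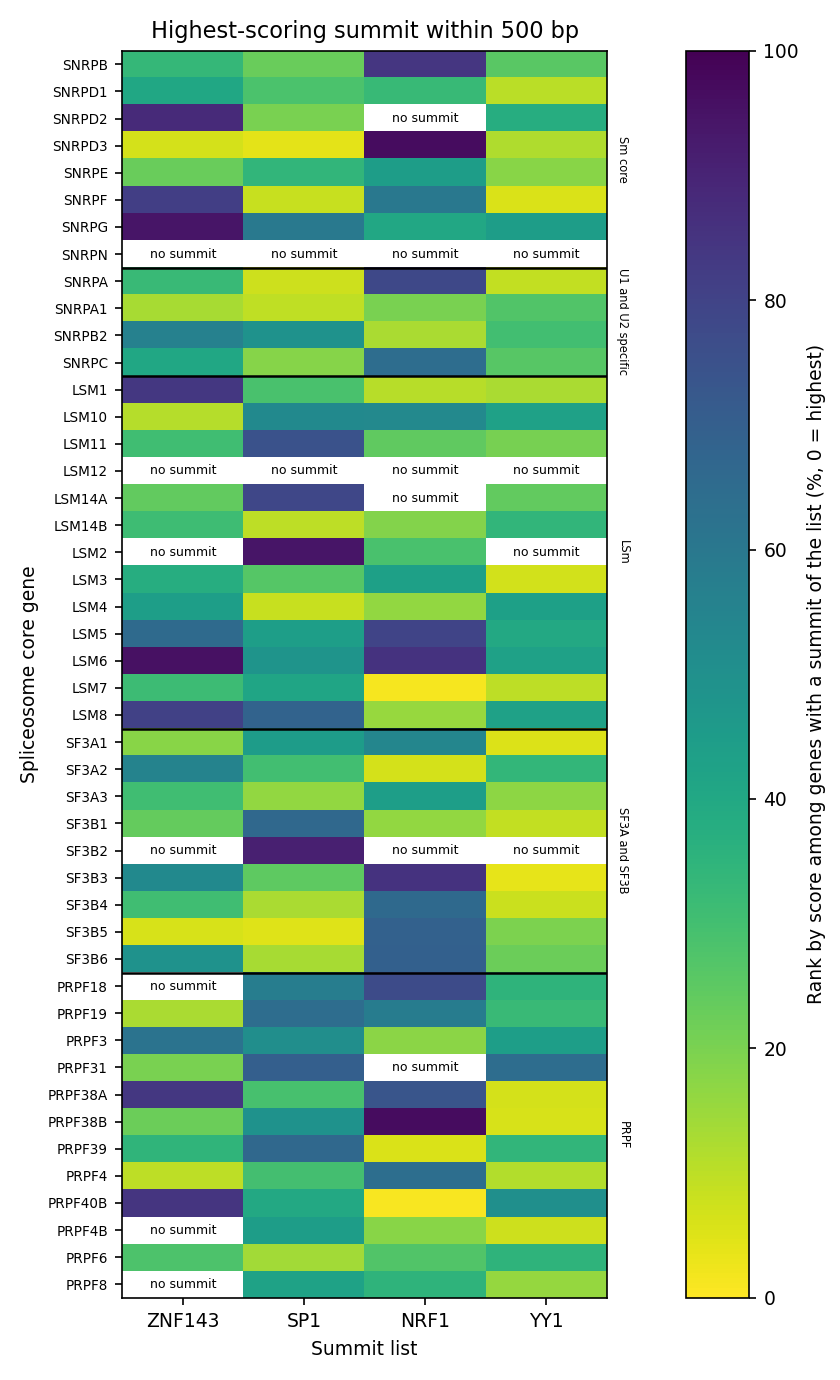
Each row is a spliceosome core gene, grouped by class (46 of the 47 are drawn), and each column a list; colour gives the rank in percent of the highest-scoring summit within 500 bp among all genes with a summit of that list (0 is the highest), and white cells have no summit. The YY1 column is mostly in the high ranks, with 22 of 43 genes in the top 25%, and the ZNF143 and NRF1 columns run over nearly the whole scale.

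Sm genes encode the ring that is assembled on the snRNAs in the cytoplasm. ZNF143 summits were present at 7 of the 8, all but SNRPN. SNRPD3 had a ZNF143 score of 8864 at −16 bp (top 6.63%), an SP1 score of 1525 at −106 bp, the highest of the group, a YY1 score of 1213 at −46 bp and an NRF1 score of 3.27 at 418 bp. SNRPE had a ZNF143 score of 1167 at 51 bp (top 22.9%), SP1 320, NRF1 73.6 and YY1 702. These 2 genes stood apart from the other 5 Sm genes with a ZNF143 summit, whose ZNF143 scores were between 3.18 at SNRPG and 95.7 at SNRPB, with 42.8 at SNRPD1, 5.85 at SNRPF and 4.35 at SNRPD2. Their SP1 scores were between 141 at SNRPG and 1002 at SNRPF. SNRPF combined its low ZNF143 score with an SP1 summit in the top 8.44% (at −37 bp) and a YY1 score of 2427 in the top 5.75% (at 13 bp). YY1 scores at the others were 1431 at SNRPD1, 396 at SNRPB, 222 at SNRPD2 and 171 at SNRPG. None of the 6 Sm genes with an NRF1 summit was in the top 25% of that list, and their NRF1 scores reached 282 at SNRPD1.

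All 4 genes of U1- and U2-specific proteins had all 4 lists. SNRPA1, which encodes the A′ protein of U2, had scores of 4611 for ZNF143 at 23 bp (top 12.9%), 930 for SP1 at −18 bp, 2035 for NRF1 at −19 bp and 363 for YY1 at 27 bp, so that its 4 summits lay close around the start. SNRPA had an SP1 score of 1056 at 453 bp and a YY1 score of 1690 at −152 bp, the latter at the gene-level start alone. Measured from the canonical start of SNRPA, the same SP1 summit lies upstream, at −113 bp. SNRPB2, which encodes the B″ protein of U2, had its highest rank in NRF1 (4842 at −68 bp, top 12.7%) and a ZNF143 score of 16.3. SNRPC, which encodes the C protein of U1, had ZNF143 44.2, SP1 567, NRF1 19.8 and YY1 390.

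Of the 13 LSM genes, ZNF143 was present at 11, SP1 at 12, NRF1 at 11 and YY1 at 11. LSM10 had the highest ZNF143 score of the class, 5332 at −52 bp (top 11.3%), beside an SP1 summit at −49 bp (182), an NRF1 summit at −57 bp (39.4) and a YY1 summit at −6 bp (181). LSM14A followed with 914 at −91 bp (top 24.1%), with SP1 54.8 and YY1 428. The other 9 LSM genes with ZNF143 had scores between 3.07 at LSM6, the lowest of the whole group, and 169 at LSM11.

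LSM11 itself had NRF1 1084, YY1 551 and SP1 69.8, and LSM6 had NRF1 7.22, YY1 182 and SP1 209.

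The genes of the U6 ring, LSM2 to LSM8, held no ZNF143 score in the top 25%, and 3 of them (LSM7, LSM8 and LSM4) had NRF1 scores in the top 25% of that list. LSM7 had an NRF1 score of 14125 at −19 bp (top 1.36%) and a ZNF143 score of 146 at −35 bp, with YY1 1536 at 72 bp and SP1 259. LSM8 had NRF1 3617 and ZNF143 6.16, and LSM4 had NRF1 3327 and ZNF143 33.5. LSM3 instead had its highest rank in YY1 (2079 at 55 bp, top 6.85%), and LSM5 held low scores in NRF1 (9.66) and ZNF143 (10.6) at the gene-level start. LSM2 had an SP1 score of 9.60 at 197 bp and an NRF1 score of 563 at −32 bp. LSM1, outside the U6 ring, had NRF1 5586 at −67 bp, YY1 1140 at 280 bp, SP1 384 at 87 bp and ZNF143 5.43 at −244 bp, and LSM14B had NRF1 2567, SP1 897, YY1 257 and ZNF143 165.

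The SF3A and SF3B genes encode the U2 subcomplexes that hold the branch point. SF3B5, a small SF3b subunit, had the highest ZNF143 score of all members, 9552 at −196 bp (top 5.99%), with SP1 1413 at −94 bp, YY1 582 at −84 bp and an NRF1 summit in the top 68.8% at −102 bp. SF3A1 had ZNF143 2612 at 277 bp, inside an intron, and YY1 2538 at 73 bp, with SP1 232 and NRF1 35.9. The 5′ end of CCDC157 on the other strand lies 284 bp downstream of the SF3A1 start, so this ZNF143 summit cannot be given to 1 of these genes. SF3B1, which clamps the branch point helix, ranked in the top 25% of ZNF143 (1015 at −98 bp), NRF1 (3410 at −12 bp) and YY1 (1660 at 172 bp), with SP1 at 109. YY1 was in the top 25% at 7 of the 8 SF3A and SF3B genes with a YY1 summit, the exception being SF3A2.

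SF3B3 had the highest YY1 score of the group, 3443 at −251 bp (top 3.78%), where the 5′ end of COG4 lies 231 bp upstream on the other strand. SF3B3 also had a YY1 summit scored 3286 at 85 bp, downstream of its own start. Its other scores were ZNF143 20.4 at −189 bp, SP1 435 and NRF1 7.31. SF3A3 held its 4 summits within the 24 bp upstream of the start, with ZNF143 180 at −24 bp, SP1 609 at −21 bp, NRF1 76.1 at −16 bp and YY1 735 at −9 bp. SF3B4 had ZNF143 177 at −6 bp, SP1 748, NRF1 18.7 and YY1 1815. SF3A2 carried its highest rank in NRF1 (7912 at −413 bp, top 6.46%), with ZNF143 17.2, SP1 361 and YY1 259. A further NRF1 summit of SF3A2, scored 6908, lay at −87 bp. SF3B6, whose protein contacts the branch point adenosine, had ZNF143 24.5, SP1 739, NRF1 15.5 and YY1 477. SF3B2 had an SP1 score of 15.6 at 60 bp.

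Of the 13 PRPF genes, which act in several snRNPs, all had SP1 and YY1, 12 had NRF1 and 10 had ZNF143. PRPF4, a U4/U6 protein gene, had ZNF143 5976 at −99 bp (top 10.0%) with YY1 1227 at −104 bp, SP1 368 and NRF1 20.0. PRPF19, the gene of a ubiquitin ligase of the activated spliceosome, had ZNF143 4639 at −99 bp (top 12.8%), with SP1 118, NRF1 27.8 and YY1 282. PRPF31, a U4/U6 protein gene mutated in retinitis pigmentosa, had ZNF143 1761 at −8 bp (top 20.2%), SP1 93.1 and YY1 80.9. PRPF38B had ZNF143 1250 at −34 bp and YY1 2344 at 5 bp, beside SP1 202 and NRF1 3.31. At PRPF6, which bridges the parts of the tri-snRNP, ZNF143 scored 343 at −46 bp, SP1 703, NRF1 695 and YY1 251.

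The other PRPF genes described here had ZNF143 scores under 100, or none. PRPF39, a U1-associated factor gene, had NRF1 8283 at −3 bp (top 5.81%), ZNF143 81.4, SP1 109 and YY1 255. PRPF40B had the highest NRF1 score of the group, 14558 at −301 bp (top 1.17%), with ZNF143 5.11, SP1 269 and YY1 138. This holds for the gene-level start, which lies 73 bp from the 5′ end of MCRS1 on the other strand, and not for the canonical start. PRPF38A had YY1 2158 at 25 bp with ZNF143 5.43, SP1 379 and NRF1 12.5. PRPF3 had NRF1 2975 with ZNF143 12.4, SP1 194 and YY1 173. The 3 genes without ZNF143 differed from each other in the other lists: PRPF4B had NRF1 2765 and YY1 1890, PRPF8 had YY1 795 and NRF1 204, and PRPF18 had YY1 252 and NRF1 11.0.

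High ZNF143 and high NRF1 scores coincided at 2 members. Of the 37 members with both, 10 were in the top 25% for ZNF143 and 13 for NRF1. SF3B1 and SNRPA1 were in both, which is 20% of the first set and 15.4% of the other. Over all genes with both the shares were 29.3% and 27.0%. For ZNF143 and YY1 the members in both were 8 (LSM14A, PRPF38B, PRPF4, SF3A1, SF3B1, SF3B5, SNRPD3 and SNRPE), which is 66.7% of the ZNF143 set and 40% of the YY1 set, against 46.1% and 29.7% over all genes. The base differed too, as 50% of these 40 members and 38.9% of all genes with both lists were in the top 25% for YY1. These counts are small, and no test was made of either difference.

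**Figure D3:**
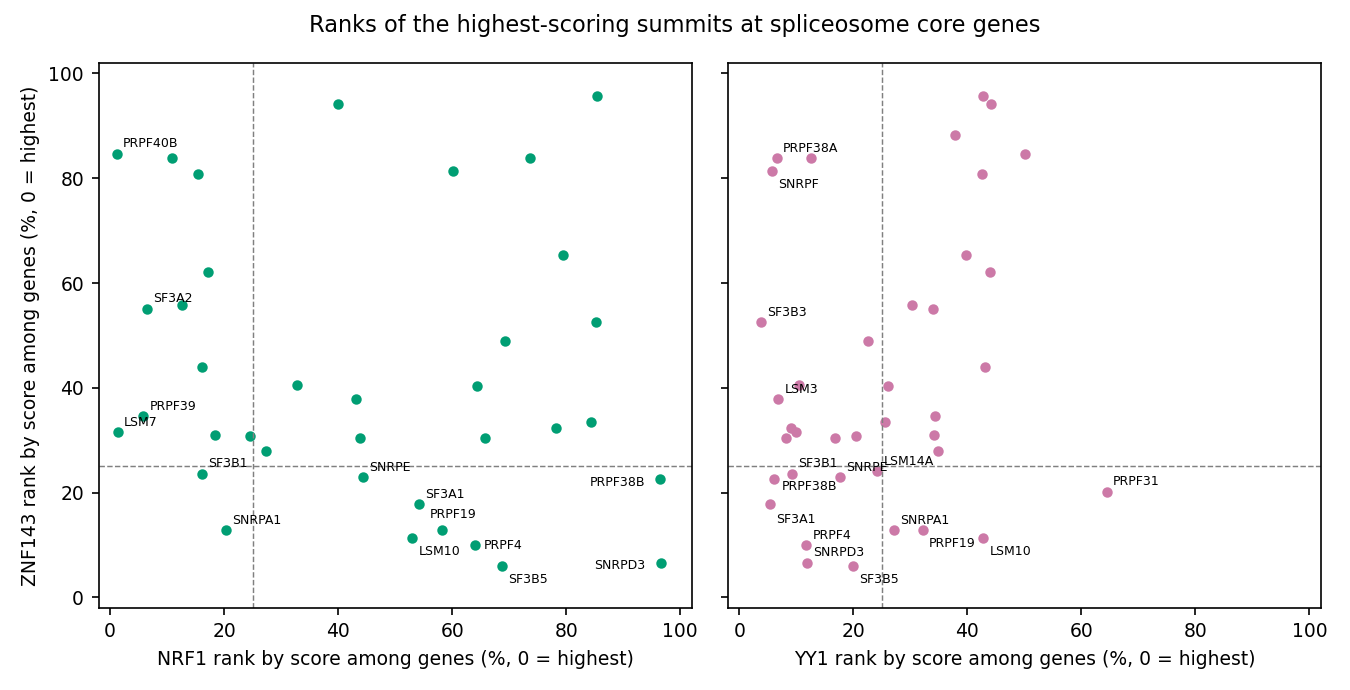
Each point is a spliceosome core gene with summits of both lists (1 such gene is not drawn); the vertical axis gives its ZNF143 rank and the horizontal axis its NRF1 rank (left) or YY1 rank (right), in percent of genes with a summit of the list (0 is the highest), with dashed lines at 25%. The lower left field holds SF3B1 and SNRPA1 on the left and 8 genes on the right.

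Summits of ZNF143, SP1 and NRF1 lay mainly upstream of the start and those of YY1 mainly downstream. For ZNF143 the highest-scoring summit had a median offset of −34.5 bp (quartiles −139 and 17.5 bp). The SP1 median was −37 bp (−80 and 8 bp), the NRF1 median −56 bp (−125 and −12 bp) and the YY1 median 25 bp (−42.5 and 76.5 bp). Over all genes with a summit the medians were −19, −38, −29 and 60 bp. Measured from the canonical starts, the ZNF143 median of the members was −58.5 bp and the SP1 median −58 bp. NRF1 was upstream at 34 of 41 members (82.9%) and at 59.7% of all genes with an NRF1 summit. By class it was upstream at 8 of 8 SF3A and SF3B genes, 4 of 4 U1 and U2 genes, 10 of 11 LSM genes, 9 of 12 PRPF genes and 3 of 6 Sm genes. YY1 lay downstream of SP1 at 34 of 43 members (79.1%; all genes 62.6%) and downstream of NRF1 at 31 of 40 (77.5%; all genes 60.1%). The highest YY1 summit was downstream of the start at 26 of 43 members (60.5%) and at 61.5% of all genes with a YY1 summit. By the canonical transcript, it lay upstream at 22 members (51.2%, all genes with a YY1 summit 53.9%). It was in a UTR at 11 (25.6%, 22.1%), in an intron at 8 (18.6%, 10.9%) and in coding sequence at LSM3 and LSM11 (4.65%, 13.1%).

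**Figure D4:**
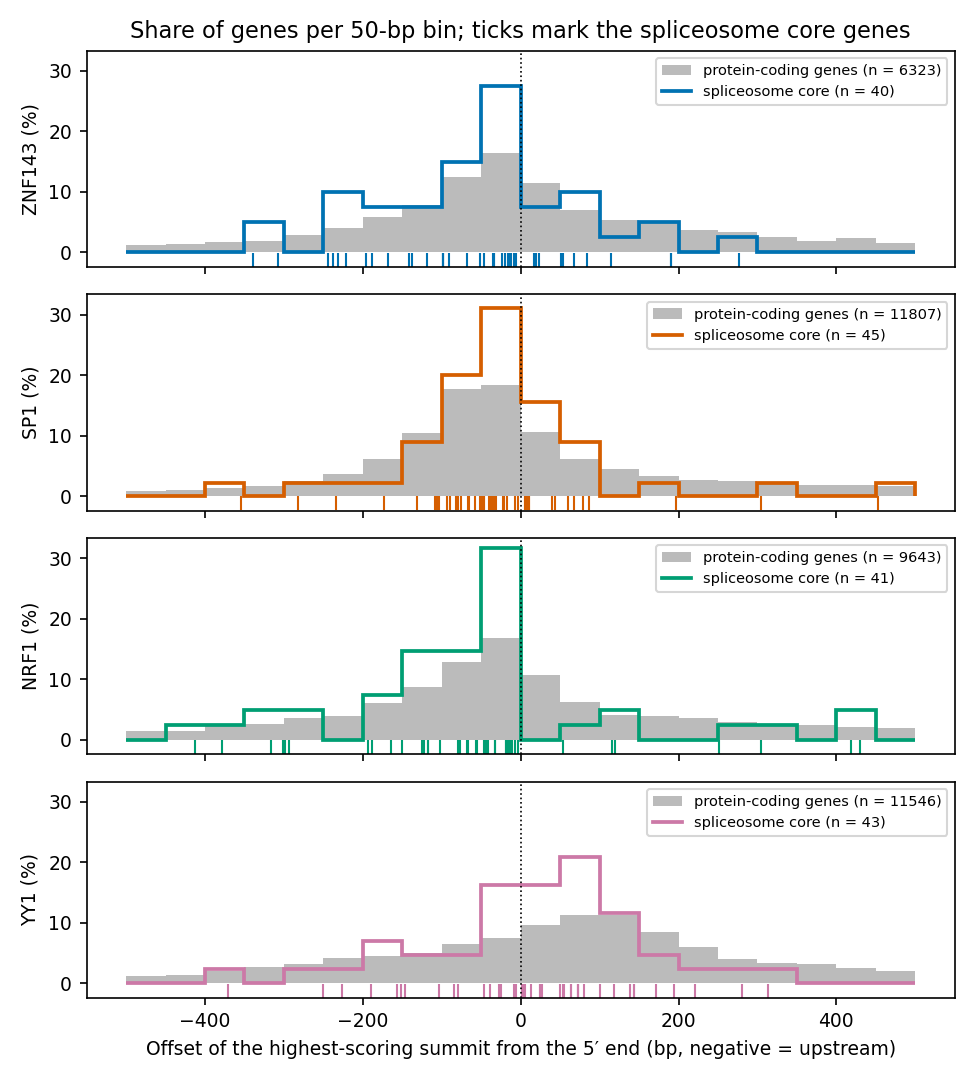
Each panel gives, per 50-bp bin of the offset from the 5′ end, the percent of genes whose highest-scoring summit lies there, for all protein-coding genes (grey) and the spliceosome core genes (coloured line, with a tick per gene). The NRF1 summits of the core genes lie upstream at 34 of 41 genes and the YY1 summits centre downstream, at a median of 25 bp.

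The ZNF143 and YY1 summits of a gene lay within 50 bp of each other at 20 of 40 members (50%; all genes 40.1%), and those of ZNF143 and NRF1 at 8 of 37 (21.6%; all genes 27.8%). ZNF143 and SP1 lay within 50 bp at 18 of 40 (45%; all genes 47.7%). The ZNF143 and YY1 summits lay on the same base at PRPF3, at 53 bp, and were 4 bp apart at SNRPA1 and 5 bp at PRPF4.

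The motifs were searched on both strands with no mismatch, and their letters can share bases: the ATG of the ZNF143 core is also in the YY1 letters, and the NRF1 letters can match both strands at overlapping places, as at LSM7. Within 500 bp of the start, the ZNF143 core was at 11 of 47 members (23.4%; all promoters 14.2%), the extension at 8 (17.0%; 9.34%), the NRF1 letters at 12 (25.5%; 14.6%), the YY1 letters at 9 (19.1%; 7.54%) and the SP1 letters at 17 (36.2%; 31.0%). Near the list's own summit, the NRF1 letters were found at 11 of 41 members (26.8%; all genes with a summit 21.8%), at LSM1, LSM14B, LSM2, LSM7, LSM8, PRPF39, PRPF40B, PRPF6, PRPF8, SF3A2 and SF3B1. The YY1 letters were near the YY1 summit at 7 of 43 (16.3%; 6.56%), at LSM14A, LSM3, LSM7, PRPF38B, SF3A1, SF3B3 and SNRPA. The ZNF143 core was near the ZNF143 summit at 4 of 40 (10%; 5.39%) and the extension at 2 of 40 (5%; 9.43%), below its share over all genes. The same held for the SP1 letters, near the SP1 summit at 1 of 45 (2.22%; 12.1%).

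Matches and summits did not always go together. PRPF4B held the ZNF143 core at −50 bp and LSM2 held it at 212 bp, and neither had a ZNF143 summit within 500 bp on the chromosome. For LSM2 this absence is uncertain, as 1 copy of its promoter on an alternate contig held a ZNF143 summit (6.95). SNRPN held the NRF1 letters at −49 bp without a summit. Where no match was found, these letters are not in the window, and nothing follows for the factor.

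The core genes were mostly rich in CpG. In the 1001 bases around the start, the observed-to-expected CpG ratio was over 0.6 at 44 of 47 members (93.6%) and at 60.1% of all genes. The 3 genes below it were SF3B2 (0.345), SNRPN (0.388) and LSM12 (0.426), the genes with 1 list or none at the gene-level start. The ratio was taken around that start alone. The canonical starts of SF3B2 and LSM12 lie 1635 and 948 bp away, outside these bases. The part of base composition in the counts was not tested.

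Many summits cannot be given to 1 gene. An opposite-strand 5′ end lay within 1000 bp at 25 members, and at 16 of them it was of a protein-coding gene, such as GUCD1 beside SNRPD3 (23 bp upstream), CDC26 beside PRPF4 (70 bp), SPPL2B beside LSM7 (4 bp) and ORC1 beside PRPF38A (179 bp). ZNF143 was present at 23 of these 25 (92%) and at 17 of the other 22 (77.3%). Neighbours were not counted over all genes, so no background stands beside these numbers. Of the members in the top 25% for ZNF143 score, SF3B5, LSM10, SNRPE, SF3B1 and LSM14A had no such neighbour. The others in that set, SNRPD3, PRPF4, PRPF19, SNRPA1, SF3A1, PRPF31 and PRPF38B, had one.

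Copies of promoters on alternate contigs also touch 4 members, as reads from a copy and from the chromosome cannot be told apart. PRPF31 matched 9 such contigs, each with a ZNF143 summit scored between 1452 and 1567, near the 1761 on the chromosome. LSM14A matched 1, with a ZNF143 score of 902 beside 914. LSM2, in the major histocompatibility region, matched 5, of which 1 held a ZNF143 summit (6.95), and PRPF8 matched 1 with a summit (9.09), although neither had a ZNF143 summit within 500 bp on the chromosome. PRPF8 has a summit 693 bp downstream of its start (19.9), so its absence depends on the window. Counting these, 42 of 47 members (89.4%) had ZNF143, an alternative chosen after the copies were seen. Copies were searched for the members alone, so this share can only rise and has no background over all genes. Off chromosomes 1 to 22 and X, the SP1, NRF1 and YY1 lists hold summits on the Y chromosome alone (94, 14 and 80), so that missing NRF1 at PRPF31 and LSM14A and missing YY1 at LSM2 cannot be checked in this way.

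Other spliceosome genes, 56 from a list of snRNP, catalytic and Sm-assembly proteins outside the symbol rule, had ZNF143 at 40, SP1 at 49, NRF1 at 46 and YY1 at 49, with all 4 lists at 38. The shares over all protein-coding genes were 31.7%, 59.1%, 48.3%, 57.8% and 28.1%, in the same order. By class, ZNF143 was at 7 of 11 U5 and tri-snRNP genes, 11 of 13 U1, U2 and minor snRNP genes, 12 of 20 genes of the PRP19 complex and catalysis, and 10 of 12 genes of Sm ring assembly. The highest ZNF143 scores among them were 26923 at ZMAT5 (−177 bp), a minor spliceosome protein gene, 18904 at CDC40 (4 bp) and 7133 at CWC22 (−34 bp), the first 2 being above every core gene. No summit of any list lay at SNU13, PUF60, CRNKL1, CWC27 and GEMIN4. The values of these 56 genes are for the gene-level start alone, and an absence there can depend on that choice. SMN1 has a near-identical copy, SMN2, and its values are uncertain.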

How the data were processed

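The measurements were 4 deposited lists of 1-bp ChIP-seq peak summits, 1 per antibody. From its values and layout, the deposited score is a −log10 value of a MACS-type caller; whether of a p-value or a q-value is not given in the sources used here. It starts at 2.00 in each list. The submitters' processing notes name cutadapt, Bowtie2, SAMtools 1.16.1, MACS3, bedtools and hg38, without their roles. The labels tie the SP1 and ZNF143 lists to untreated and treated samples alike; the NRF1 and YY1 lists were assigned by the antibody in their names. Scores and list lengths grow with read depth, which is unknown. All lists fitted hg38, with no summit beyond the end of any of 23 chromosomes.

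Summits on chromosomes 1 to 22 and X (ZNF143 16165, SP1 126181, NRF1 39180, YY1 106578) were joined to GENCODE 44 gene 5′ ends within 500 bp with Python 3.11.15, and the highest-scoring summit of each list was taken. Motifs were counted as near a summit when wholly within 50 bp of it. The search was tested on simulated data. Genes are not replicates and the lists hold no samples, so no test was made; shares over all 19970 genes are given as background. All members but 1, which is not reported here, are named; values are given in full for the 15 highest ZNF143 scores, the 5 highest of each other list, and genes with at most 2 lists, and shorter for the rest. The members and lists were chosen with earlier results of these data known. Signal tracks and mock samples were not analysed here. Alternatives were windows of 250 and 1000 bp, canonical starts, the top 50% of each list, equal list lengths, the nearest summit, members without a neighbour, 1 mismatch and 100 bp around summits.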

Additional observations from a re-analysis of the deposited data

How the results depend on the processing

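The shares of members with each list stayed within 1.5 times their value under all alternatives run: ZNF143 from 61.7% to 89.4%, SP1 from 72.3% to 97.9%, NRF1 from 74.5% to 93.6%, YY1 from 81.8% to 95.7% and all 4 lists from 53.2% to 83.0%. The top 50% of the ZNF143 list lacked a summit at 11 of the 40 members (among them LSM1, LSM5, LSM6, LSM8, PRPF3, PRPF38A, PRPF40B, SNRPD2, SNRPF and SNRPG), leaving 61.7% beside 19.3% of all genes. With SP1 cut to the 16165 highest summits, 72.3% of members and 32.6% of all genes had one. Members with no summit, 4.26% in the report, were 2.13% with the 1000 bp window (all genes 34.3%). With canonical starts, where LSM12 gained summits, they were 2.13% (all genes 33.2%). Without members that have an opposite-strand neighbour, they were 9.09% (2 of 22). With 1 mismatch allowed, motif shares near the own summit rose to 32.5% for ZNF143, 24.4% for SP1 (all genes 40.4%), 51.2% for NRF1 (52.8%) and 34.9% for YY1 (17.5%), by construction. Within 100 bp the SP1 letters were at 15.6% (all genes 21.0%). Median offsets moved by less than their spread over members; the furthest were at canonical starts, ZNF143 from −34.5 to −58.5 bp and SP1 from −37 to −58 bp. No paired analysis was possible because the lists hold no value per sample, and depth, which sets how many weak summits a list holds, is unknown.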

Other observations

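Letters of another factor class were frequent at the spliceosome core genes. The ETS-type letters CCGGAAGT, which ETS family activators recognise, lay within 500 bp of the start at 13 of 47 genes (27.7%) and at 7.30% of all protein-coding genes: PRPF19, PRPF4, PRPF40B, PRPF6, SF3A1, SF3A2, SF3A3, SF3B3, SF3B4, SF3B6, SNRPA1, SNRPB and SNRPE. They lay near the SP1 summit at 7 of 45 members (15.6%; all genes with a summit 4.64%) and near the YY1 summit at 6 of 43 (14.0%; 2.99%). Near the NRF1 summit they were at 3 of 41 (7.32%; 3.01%), and near the ZNF143 summit at 3 of 40 (7.50%; 6.06%), close to the share over all genes. At SF3A3 a match at −12 bp had all 4 summits within 12 bp of its middle. At SF3B4 a match at −22 bp had ZNF143, SP1 and YY1 within 18 bp. No ETS factor was measured, and the difference was not tested. The palindrome TCTCGCGAG, which BANP recognises, lay at LSM14A and LSM3 (2 of 47, 4.26%; all genes 1.20%).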
